A study of Arabidopsis with 26 samples.

Results

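The subject is a set of 1506 genomic regions in Arabidopsis seedlings where the ATPases BRM, SYD and MINU2 all gave a chromatin immunoprecipitation (ChIP-seq) peak, but where the MINU2 peak ranked far lower in its list than the BRM and SYD peaks ranked in theirs. BRM, SYD and MINU2 are alternative motor subunits of SWI/SNF complexes, which use ATP to slide or evict nucleosomes. In Arabidopsis each ATPase works in its own class of complex. SWI3C is a partner of BRM, SWI3D a partner of SYD, and SWI3A and BSH are partners of the MINU ATPases. The complexes are known for roles in flowering, hormone responses, light responses and organ patterning.

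The regions were chosen from 6 peak lists. Peaks on the 5 nuclear chromosomes of 2 MINU2-GFP minu2-1, 2 BRM-GFP brm-1 and 2 SYD-N-GFP syd-5 lists (replicates 3 and 4) were merged from an overlap of 1 bp into 21697 regions. A peak of all 6 lists was present in 8345 of these, and 2229 with a peak in all 26 lists of the study were dropped. The remaining 6116 are called shared regions here. Every dropped region had a peak in each list, so the drop can only lower the shares of regions with a peak given below. Each region was given a score per list, the percentile (0 to 100) of the −log10 q of its best peak among the peaks of that list. A region was chosen when its mean MINU2 score minus its mean score in the 4 BRM and SYD lists was -30 or less, which was the case for 1506 of the 6116 shared regions (24.6%). The other 4610 shared regions serve as the comparison, and 1322 shared regions had a difference of 30 or more in the opposite direction.

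All 26 libraries came from 14-day-old whole seedlings in which a subunit fused to green fluorescent protein (GFP) was precipitated with an anti-GFP antibody. The lines combine the fusion with a mutation of the gene it replaces, apart from SWI3C-GFP, for which no allele is named, and the promoter of the fusions is not given in the sources used here. Besides the lines above, the lists used below are named SYD-N-GFP syd-5 brm-1 (2), SYD-N-GFP syd-5 swi3d-1 (2), SWI3D-GFP swi3d-1 syd-5 (2), BRM-GFP brm-1 syd-5 (2), SYD-N-GFP syd-5 replicates 1 and 2, SWI3D-GFP swi3d-1 (3), and SWI3C-GFP, BSH-GFP bsh, SWI3A-GFP swi3a-3, SWP73A-GFP swp73a-2, SWP73B-GFP swp73b-1, BCL7A-GFP bcl7a and BCL7B-GFP bcl7b (1 each). In the double mutants both the gene of the fusion and a second subunit gene are mutated. The sample labels give other allele names for 3 lines: swi3a-1 for SWI3A-GFP, bcl7a-1 for BCL7A-GFP and bcl7b-1 for BCL7B-GFP.

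Every line name below is that of the deposited list, because the regions were chosen by these names, and the sample labels name a different line for 19 of the 26 lists. The label and the list name give the same line for both BRM-GFP brm-1 lists, both BRM-GFP brm-1 syd-5 lists, SYD-N-GFP syd-5 replicates 3 and 4 and SWI3D-GFP swi3d-1 replicate 1. The 2 lists named MINU2-GFP minu2-1 are labelled SYD-GFP syd-5 replicates 3 and 4. If the labels hold, the choice sets SYD libraries against BRM and other SYD libraries. The lists named BSH-GFP bsh and SWI3A-GFP swi3a-3 are labelled SYD-GFP syd-5 brm-1 and SWP73B-GFP swp73b-1. SWI3D-GFP swi3d-1 replicates 2 and 3 are labelled SYD-GFP syd-5 brm-1 and MINU2-GFP minu2-1. SWI3D-GFP swi3d-1 syd-5 replicates 1 and 2 are labelled MINU2-GFP minu2-1 and SWI3A-GFP swi3a-1. The SWI3C-GFP list is labelled BCL7A-GFP bcl7a-1. In 4 lists the peak names themselves hold a line, SG_syd-5 or SG_syd-5_3d, and these are the lists named SYD-N-GFP syd-5 replicates 1 and 2 and SYD-N-GFP syd-5 swi3d-1, whose labels name BSH, SWI3C, SWP73A and SWI3D lines. The other 22 lists hold no such text.

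The lists held 4383 to 21329 nuclear peaks, and read depth is unknown because the files hold no read numbers. Peaks on the organelle genomes occur in 12 lists and in none of the other 14. Peak width differed with it: no nuclear peak was wider than 3838 to 3877 bp in the 12, depending on the list, while the widest was 5697 to 22566 bp in the 14. Both MINU2 lists belong to the 12, and all 4 BRM and SYD lists of the choice belong to the 14. The difference that chose the regions and this batch therefore cannot be told apart within the 6 lists.

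**Figure D1:**
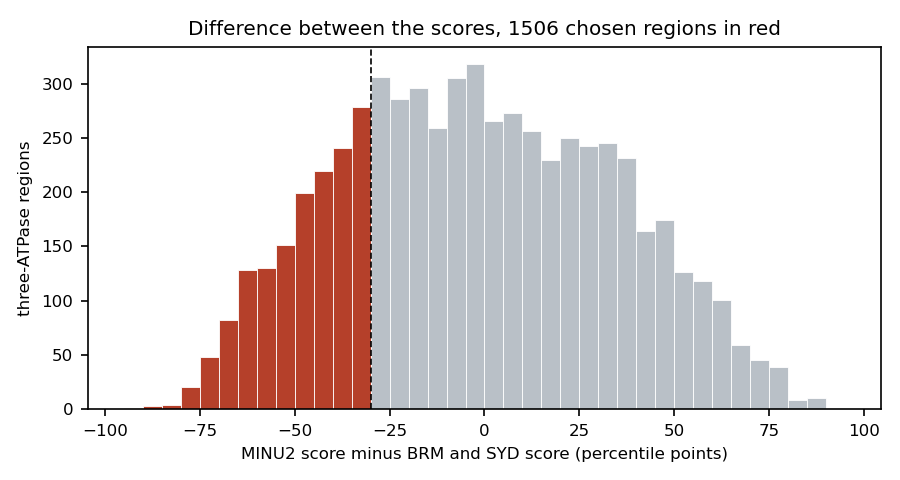
Number of shared regions (vertical axis) by the mean MINU2 score minus the mean BRM and SYD score in percentile points (horizontal axis, bins of 5), with the 1506 chosen regions in red and the dashed line at the threshold of -30. The differences form a single broad distribution, and the chosen regions are its lower tail.

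The differences had no gap at the threshold. The chosen regions had a median MINU2 score of 25.4 and a median BRM and SYD score of 75.5, with a median difference of -45.5 and a lowest of -91.5. In the other shared regions the median scores were 64.9 for MINU2 and 49.3 for BRM and SYD. These values chose the regions and are given as a description. Just inside the threshold lay regions nearest to CDF2, a Dof transcription factor that represses flowering, AT3G07190 and the boron exporter BOR1, with differences of -30.004, -30.006 and -30.08. Just outside lay regions nearest to AT2G22510, the metal transporter NRAMP1 and CP1, with differences of -29.998, -29.985 and -29.977.

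Both ATPases contributed to most choices. Both MINU2 scores were lower than all 4 BRM and SYD scores in 1452 chosen regions, or 96.4%, against 33.6% of all shared regions. The MINU2 mean was at least 30 below the BRM mean and at least 30 below the SYD mean in 1105 chosen regions (73.4%), against 18.1% of all shared regions. The choice largely sets both of these counts, which are given as a description. The SYD mean exceeded the BRM mean by more than 20 in 162 chosen regions (10.8%), against 15.9% of all shared regions. The BRM mean exceeded the SYD mean by more than 20 in 269 (17.9%), against 23%. The deposited fold enrichment of the best peak, the authors' own value for each peak, had medians of 2.53 and 2.55 in the MINU2 lists, 4.25 and 4.09 in the BRM lists and 4.44 and 4.42 in the SYD lists. In the other shared regions the medians were 3.71 and 3.82 in the MINU2 lists, 2.93 and 2.84 in the BRM lists and 3.02 and 3.05 in the SYD lists.

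The chosen regions were wide. Their median width was 1872.5 bp, against 1093 bp in the other shared regions, and 324 of them (21.5%) measured at least 3000 bp, against 8.27% of all shared regions. The best MINU2 peak in a chosen region had a median width of 519 and 563.5 bp in the 2 lists. The best BRM peak measured 1538 and 1476 bp, and the best SYD peak 1051.5 and 989.5 bp. In the other shared regions the MINU2 peaks measured 704 and 748 bp, the BRM peaks 771 and 746.5 bp and the SYD peaks 602 and 568.5 bp. Widths run with the batch described above, and its part in them was not tested.

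**Figure D2:**
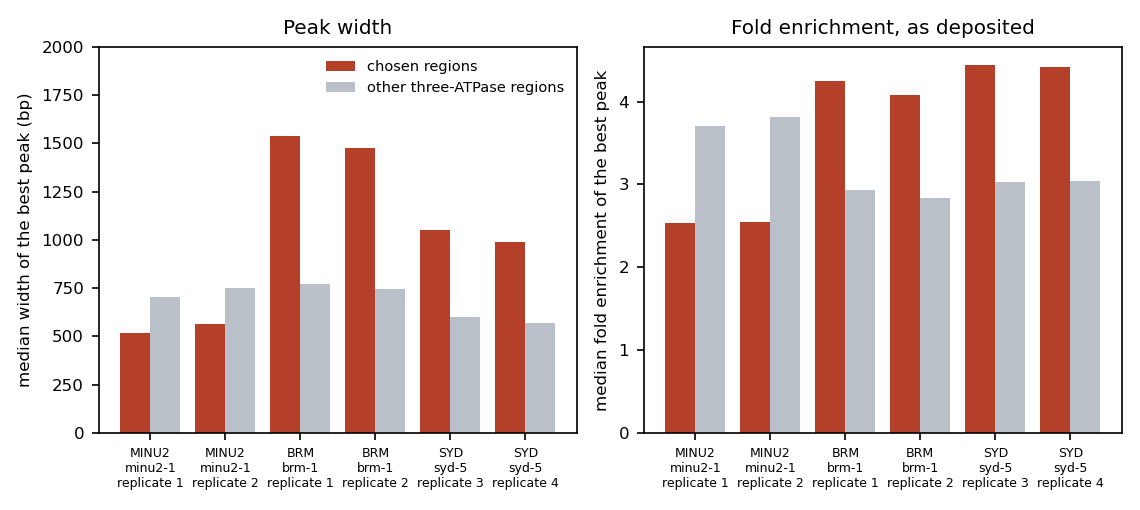
Median width in bp (left) and median fold enrichment as deposited (right) of the best peak in each of the 6 lists that chose the regions, for chosen regions (red) and other shared regions (grey). MINU2 bars are lower in the chosen regions and BRM and SYD bars are higher, by the way the regions were chosen.

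The summit is the position of highest enrichment within a peak. The MINU2 summits of the 2 replicates lay a median of 77 bp apart in the chosen regions and 42 bp apart in the other shared regions. BRM replicates lay 49 bp apart in the chosen regions and 56 bp apart in the others, and SYD replicates 41 bp and 50 bp apart. MINU2 and BRM summits lay a median of 175 bp apart in the chosen regions and 138 bp apart in the others, and MINU2 and SYD summits 104 bp and 75.5 bp apart. The distance between MINU2 and SYD summits exceeded 500 bp in 24.4% of chosen regions and 10.7% of the others. SYD and BRM summits also exceeded that distance in 25.5% of chosen regions and 11.5% of the others, so wide separations were not limited to MINU2.

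The lowest single difference was on chromosome 1, 25726658 to 25728528 (TAIR10), over CRF10, a cytokinin response factor of the AP2/ERF family. CRF10 scored 0.171 and 3.52 in the MINU2 lists, against 93.1 and 89.1 in the BRM lists and 95.9 and 95.2 in the SYD lists. Its fold enrichment was 1.68 and 1.83 in MINU2, 6.54 and 5.50 in BRM and 8.001 and 7.53 in SYD. The MINU2 peaks there were among the weakest of their lists and the BRM and SYD peaks among the strongest, with no overlap.

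SLAH3, an anion channel, is the gene of the region on chromosome 5, 8120496 to 8123286, the only one among both the 12 lowest differences and the 12 highest BRM and SYD scores. SLAH3 scored 8.79 and 12.3 in the MINU2 lists, against 98.2 and 98.7 in the BRM lists and 96.9 and 94.9 in the SYD lists. RRTF1, an ERF transcription factor responsive to redox stress, scored 9.24 and 13.8 in MINU2, 85.5 and 91.1 in BRM and 97.1 and 96.2 in SYD. NGA3, a B3 transcription factor that limits lateral organ growth, scored 4.58 and 13.0 in MINU2, 87.7 and 91.5 in BRM and 86.9 and 79.5 in SYD. In all 3 regions the groups were far apart and the 4 BRM and SYD scores were close to each other.

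The 12 lowest differences ranged from -91.5 to -77.6, with widths of 1871 to 6284 bp. The other 8 were nearest to AT1G28375, AT5G48657, AT5G00735 (an lncRNA), AT1G76360, AT4G20860, MDAR1, VEL1 and BEL1. The last 3 lay far from any gene span, with summits 2421 bp from MDAR1, an enzyme of ascorbate recycling, 4205 bp from VEL1, a PHD-finger protein of the vernalization pathway, and 3210 bp from BEL1, a homeodomain protein of ovule development. The BEL1-proximal region scored 22.6 and 12.2 in MINU2, 93.0 and 93.3 in BRM and 97.3 and 97.4 in SYD.

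The 12 chosen regions with the highest mean BRM and SYD score ranged from 95.9 to 98.3 in that score, while their mean MINU2 scores ran from 10.6 to 65.6. The highest BRM and SYD score was over AT1G66940, with MINU2 scores of 69.2 and 62.0, which shows that some chosen regions carried MINU2 peaks in the upper part of the list. TIC, a regulator of the circadian clock, scored 11.6 and 29.5 in MINU2, 99.8 and 99.7 in BRM and 94.1 and 95.8 in SYD. The region on chromosome 2, 19172878 to 19179693, spans MIR166a, a microRNA gene whose product targets HD-ZIP III transcripts, and scored 21.2 and 37.2 in MINU2, 98.9 and 97.7 in BRM and 96.3 and 94.7 in SYD. The rest were nearest to XYL4, a cell-wall xylosidase, AT2G09320, BOI (AT4G19700), a RING protein, AT3G60520, AT5G53750, AT5G39890 (PCO2, a plant cysteine oxidase of oxygen sensing), GATL10 and SS2. All 12 scored higher in each of the 4 BRM and SYD lists of the choice than in either MINU2 list.

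The position of a region was taken as the median of its 6 summits, 1 per list of the choice. This position lay outside every annotated gene span in 688 of the 1506 chosen regions (45.7%, Wilson 95% interval 43.2% to 48.2%), against 35.8% of all shared regions. It lay over 1000 bp from any gene span in 191 (12.7%), against 5.02% of all shared regions. It lay outside genes but within 500 bp of one in 347 (23.0%), against 25.6% of all shared regions. The summits outside genes had a median distance of 491 bp to the nearest gene span, against 132 bp in the other shared regions. The nearest gene was an lncRNA for 101 chosen regions (6.71%), against 3.94% of all shared regions. As chosen with all 6 lists, the regions thus lay in the space between genes more often, and farther out. Taken list by list, 45.6% and 44.0% of MINU2 summits lay outside genes in the chosen regions, 33.6% and 33.5% of BRM summits and 59.4% and 59.6% of SYD summits. In the other shared regions these shares were 30.5% and 28.9% for MINU2, 18.6% and 19.2% for BRM and 45.6% and 47.2% for SYD, so each of the 6 lists had the higher share in the chosen regions. With protein-coding genes alone the summit lay outside in 48.9% of chosen regions, against 38.8% of all shared regions. The interval covers counting error only, and the share ran from 37.8% to 52.2% when 1 of the 6 lists was left out: 51.4% and 52.2% without BRM replicate 1 or 2, and 37.8% and 38.5% without SYD replicate 3 or 4. The share of all shared regions was not recomputed for these settings, so they have no comparison of their own.

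Position divided the chosen regions by which ATPase led. Where BRM exceeded SYD by more than 20 (269 regions), 10.04% of summits lay outside genes, and where SYD exceeded BRM by more than 20 (162 regions), 74.7% did. The other shared regions split the same way, with 10.5% of 1137 and 60.6% of 812. The split between BRM and SYD was thus also present outside the chosen regions.

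The next question was whether the high SYD rank held in libraries that had no part in the choice. Both lists named MINU2 took part in the choice, so the low MINU2 rank could not be checked in this way. Both SYD-N-GFP syd-5 lists outside the choice (replicates 1 and 2) had a peak in 1503 chosen regions (99.8%, Wilson 95% interval 99.4% to 99.9%), against 97.1% of all shared regions. Their median scores were 76.7 and 79.0 in the chosen regions and 52.5 and 56.4 in the other shared regions. A score over 50 in both lists was found for 1332 chosen regions (88.4%), against 59.4% of all shared regions. SYD thus ranked high at these regions in 2 further lists named for it, both of the batch without organelle peaks.

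BSH, an SNF5-type core subunit, and SWI3A, a scaffold subunit, gave low scores in the chosen regions. The BSH list had a median score of 33.7 in the chosen regions and 67.5 in the other shared regions. SWI3A had 23.2 in the chosen regions and 64.9 in the others. A score under 50 in both lists was found for 1169 chosen regions (77.6%), against 34.7% of all shared regions. Outright absence was rarer. There was no SWI3A peak in 171 chosen regions (11.4%), against 3.99% of all shared regions, and no BSH peak in 36 (2.39%), against 0.85%. Neither list had a peak in 16 chosen regions, out of 20 such shared regions in all (0.327%).

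SWI3D and SWI3C, scaffold subunits of SYD and BRM complexes, gave high scores instead. The 3 SWI3D-GFP swi3d-1 lists had medians of 66.4, 74.3 and 74.2 in the chosen regions and 33.4, 49.5 and 50.3 in the other shared regions. SWI3C had a median of 63.6 in the chosen regions and 37.8 in the others. All 3 SWI3D lists had a peak in 1396 chosen regions (92.7%), against 78.1% of all shared regions, and the SWI3C list had one in 1424 (94.6%), against 84.8%. By list name, SWI3C and SWI3D thus ranked with BRM and SYD at these regions, while BSH and SWI3A ranked with MINU2. SWI3C, BSH and SWI3A have 1 list each. All of these SWI3 and BSH lists have organelle peaks, as do both MINU2 lists, while the BRM and SYD lists of the choice have none.

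**Figure D3:**
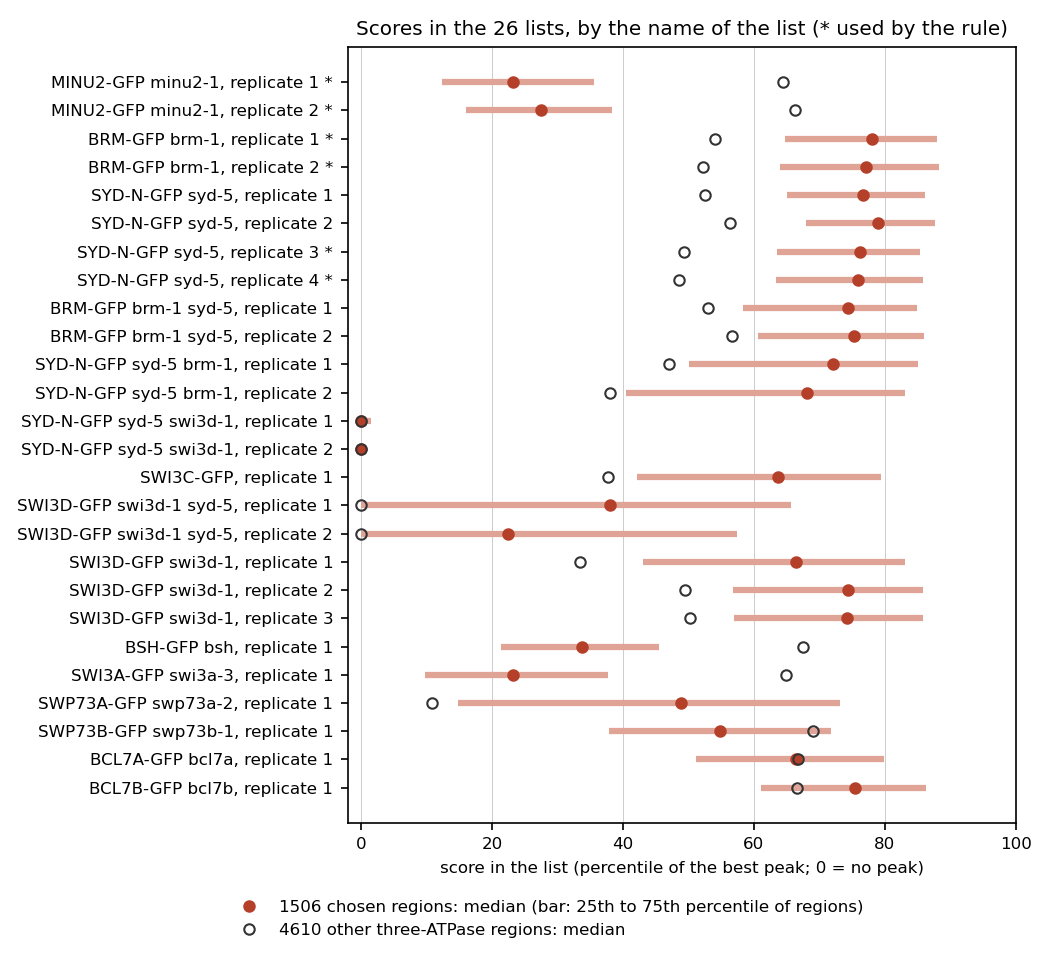
Score (horizontal axis, percentile of the best peak within its list, 0 for no peak) in each of the 26 lists, for the 1506 chosen regions (red point, median, with a bar from the 25th to the 75th percentile of regions) and the 4610 other shared regions (open circle, median). The chosen regions lie left of the other shared regions in the MINU2, BSH, SWI3A and SWP73B lists and right of them in the BRM, SYD, SWI3C and SWI3D lists other than SYD-N-GFP syd-5 swi3d-1, where both medians are 0.

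SWP73A and SWP73B are paralogous accessory subunits. The SWP73A list had a peak in 1229 chosen regions (81.6%), against 62.4% of all shared regions, and the SWP73B list in 1498 (99.5%), against 99.5%. Median scores were 48.8 for SWP73A and 54.8 for SWP73B in the chosen regions, and 10.9 and 69.0 in the other shared regions.

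The excess of a list, its median score over the chosen regions minus that over the other shared regions, gives 1 value per list for a test. In the 14 BRM, SYD, SWI3C and SWI3D lists outside the choice the excess averaged 22.1 ± 10.6 (SD, 0 to 38.1), and it was above 0 in 12 of them and 0 in both SYD-N-GFP syd-5 swi3d-1 lists. In the BSH and SWI3A lists it averaged -37.7 ± 5.59 (SD, n = 2). The difference of 59.8 was the largest absolute difference of the 120 possible splits (two-sided exact permutation test, p = 0.00833, the smallest possible, adjusted p = 0.0333 over 4 tests). Counted as 2 times the smaller tail, the p was 0.0167 and the adjusted p 0.0667, which does not pass 0.05. Among the lists with organelle peaks alone the difference was 65.7 (6 lists against 2, exact permutation p = 0.0357), and the batch without them holds no BSH or SWI3A list. The call rests on list names: as labelled, with the regions still chosen by list name, the difference was -12.0 (exact permutation p = 0.462). The lists labelled MINU2-GFP minu2-1 had an excess of 23.9 (named SWI3D-GFP swi3d-1 replicate 3) and 38.1 (named SWI3D-GFP swi3d-1 syd-5 replicate 1). The call was also lost without the BSH list (63.8) or without the SWI3A list (55.9), where the smallest possible exact p is 0.0667. The 14 lists include replicates of the same lines, and 8 of them are further BRM and SYD lists, the proteins that the choice took as high. The p-values therefore treat related lists as separate units and do not count independent partners.

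In chosen regions with a difference under -60, of which there were 286, the median score was 25.7 for BSH and 16.7 for SWI3A. In the 520 chosen regions between -40 and -30 it was 39.2 for BSH and 30.9 for SWI3A, and in the 1322 shared regions over 30 it was 87.3 and 86.2. SWI3C ran the other way, with 68.7 under -60, 60.2 between -40 and -30 and 22.6 over 30.

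**Figure D4:**
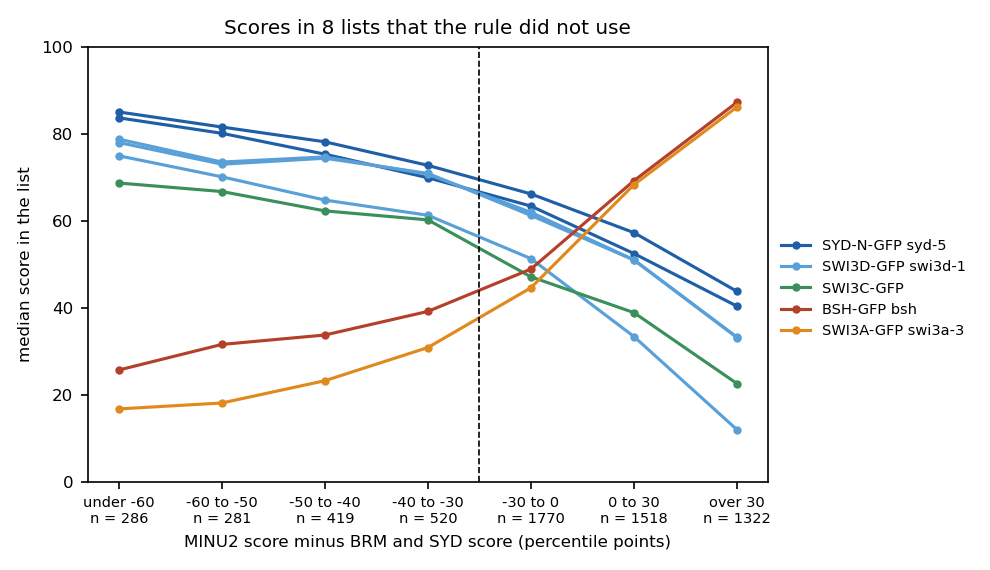
Median score in 8 lists outside the choice (vertical axis) by bins of the MINU2 score minus the BRM and SYD score (horizontal axis, with the number of shared regions per bin, and the dashed line at -30). BSH and SWI3A are higher in the rightmost bin than in the leftmost, while SYD, SWI3D and SWI3C are lower. Bins are 10 wide between -60 and -30 and 30 wide between -30 and 30.

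BRM also scored high at these regions in the line with SYD mutated. Both BRM-GFP brm-1 syd-5 lists had a peak in 1491 chosen regions (99.0%), against 95.2% of all shared regions, and neither had one in 3, against 1.13%. Their median scores were 74.4 and 75.2, against 78.0 and 77.1 in the BRM-GFP brm-1 lists. The BRM-GFP brm-1 lists took part in the choice, so this is a description with no test.

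SYD without BRM was asked next. Both SYD-N-GFP syd-5 brm-1 lists had a peak in 1368 chosen regions (90.8%), against 80.6% of all shared regions, and neither had one in 50 (3.32%), against 7.34%. Median scores were 72.1 and 68.1 in SYD-N-GFP syd-5 brm-1 and 76.7 and 79.0 in SYD-N-GFP syd-5. In the other shared regions they were 47.1 and 38.0 in SYD-N-GFP syd-5 brm-1 and 52.5 and 56.4 in SYD-N-GFP syd-5. Scores were thus lower in SYD-N-GFP syd-5 brm-1 in both kinds of region. The excess averaged 27.6 ± 3.61 in SYD-N-GFP syd-5 brm-1 and 23.4 ± 1.19 in SYD-N-GFP syd-5 (SD, n = 2 each). The excess was 25.05 and 30.2 in SYD-N-GFP syd-5 brm-1, against 24.2 and 22.5 in SYD-N-GFP syd-5, so the lists did not overlap and the difference was 4.23. With 2 lists against 2 the test cannot decide it (two-sided exact permutation test, p = 0.333, the smallest possible, adjusted p = 0.444). The difference was -0.39 with absent regions left out and -1.15 with means in place of medians.

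The median hid a contrast within the chosen regions. In the 269 regions led by BRM, the median score was 27.3 and 15.4 in SYD-N-GFP syd-5 brm-1, against 55.9 and 59.6 in SYD-N-GFP syd-5 replicates 1 and 2. In the 162 regions led by SYD it was 81.0 and 76.0 in SYD-N-GFP syd-5 brm-1, against 79.3 and 80.3 in SYD-N-GFP syd-5. The lists did not overlap in the regions led by BRM and did overlap in those led by SYD. The same contrast stood in the other shared regions. Those led by BRM had 20.0 and 4.97 in SYD-N-GFP syd-5 brm-1 and 38.5 and 43.8 in SYD-N-GFP syd-5. Those led by SYD had 68.4 and 62.3 in SYD-N-GFP syd-5 brm-1 and 63.4 and 66.8 in SYD-N-GFP syd-5. This split was made after the values were seen and was not tested, and the labels of both SYD-N-GFP syd-5 brm-1 lists name swi3d-1 in place of brm-1.

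SVP, a MADS-box repressor of flowering, is an example of a chosen region led by BRM. SVP scored 36.3 and 32.7 in MINU2, 97.9 and 96.0 in BRM and 79.0 and 68.3 in SYD. In SYD-N-GFP syd-5 brm-1 it scored 22.4 and 7.27, against 73.4 and 77.8 in SYD-N-GFP syd-5 replicates 1 and 2. IAA19, an auxin response repressor whose region was led by SYD, scored 94.1 and 94.4 in SYD-N-GFP syd-5 brm-1, against 89.3 and 87.6 in SYD-N-GFP syd-5 replicates 1 and 2.

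Most of the 1506 chosen regions had no SYD peak in either list from swi3d-1, a share set in part by the drop of regions with a peak in all 26 lists. Both SYD-N-GFP syd-5 swi3d-1 lists had a peak in 54 chosen regions (3.59%), against 6.56% of all shared regions, and neither had one in 979 (65.0%), against 63.5%. These are the shortest lists of the series, with 5227 and 4383 nuclear peaks. The 2229 regions dropped for a peak in all 26 lists had a peak in both of them. With such regions kept, 2380 regions in place of 1506 were chosen and 8345 in place of 6116 were shared. The shares here therefore understate how often these lists had a peak. Whether the chosen regions had such peaks less often than all shared regions cannot be read from them. The median scores of both lists were 0 in the chosen regions and 0 in the others, since most regions of either kind had no peak. The excess was therefore fixed at 0 in both, against 23.4 ± 1.19 in SYD-N-GFP syd-5, and the difference of -23.4 says nothing more than the SYD-N-GFP syd-5 excess does (n = 2 each, two-sided exact permutation test, p = 0.333, the smallest possible, adjusted p = 0.444). Where a peak was present, its median score was 33.4 and 28.6 in the chosen regions and 37.5 and 34.3 in the other shared regions.

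SWI3D in the line with SYD mutated gave peaks at fewer of the chosen regions. Both SWI3D-GFP swi3d-1 syd-5 lists had a peak in 885 chosen regions (58.8%), against 38.9% of all shared regions, and neither had one in 327 (21.7%), against 40.1%. Median scores were 38.1 and 22.4 in SWI3D-GFP swi3d-1 syd-5, against 66.4, 74.3 and 74.2 in SWI3D-GFP swi3d-1. The SWI3D-GFP swi3d-1 syd-5 lists are short too, with 8759 and 7062 peaks against 13030 to 16629. The regions dropped for a peak in every list of the study also had a peak in both SWI3D-GFP swi3d-1 syd-5 lists. With such regions kept, 2380 regions in place of 1506 were chosen, so the share of 58.8% understates how often both lists had a peak. The excess averaged 30.2 ± 11.0 (SD, n = 2) in SWI3D-GFP swi3d-1 syd-5 and 27.3 ± 5.002 (SD, n = 3) in SWI3D-GFP swi3d-1. The other shared regions had a median of 0 in both SWI3D-GFP swi3d-1 syd-5 lists, so the excess there was measured from the floor of the score. The difference of 2.99 lay within the spread (two-sided exact permutation test, p = 0.7, adjusted p = 0.7, smallest possible 0.1). It was -7.18 with absent regions left out and -5.83 with means in place of medians (exact permutation p = 0.1 each). With regions of all 26 lists kept it was 19.1 (exact permutation p = 0.1), so the direction was not settled.

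The 191 chosen regions whose summit lay over 1000 bp from any gene had low SWI3A and high SYD and SWI3D scores. The SWI3A median was 10.1, against 32.2 in the 116 other shared regions so far from genes. SWI3D medians were 79.4, 83.6 and 83.5 in the chosen regions and 66.3, 69.8 and 71.0 in the others. The SYD-N-GFP syd-5 brm-1 medians were 85.1 and 83.0 in the chosen regions and 76.0 and 71.5 in the others. The 171 chosen regions with no SWI3A peak likewise lay outside genes in 75.4% of cases, against 45.7% of all chosen regions.

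Auxin moves between cells through PIN efflux carriers, is read through degradation of Aux/IAA repressors that hold ARF transcription factors in check, and induces SAUR and GH3 genes. The auxin list, with 155 genes the longest of the hormone lists, held the nearest gene of 19 chosen regions, or 1.26%, against 0.719% of all shared regions (44 regions). They included the carriers PIN3, PIN4 and PIN7, the repressors IAA1, IAA7, IAA12, IAA13, IAA18 and IAA19, the factors ARF6, ARF10 (2 regions) and ARF16, the conjugating enzyme GH3.3, and 4 SAUR genes. No test of this share was made, and regions near 1 gene are not independent.

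PIN7 scored 47.0 and 42.0 in MINU2, 85.7 and 88.2 in BRM and 98.1 and 96.5 in SYD. PIN4 scored 35.6 and 27.4 in MINU2, 89.2 and 86.2 in BRM and 94.9 and 87.3 in SYD. PIN3 scored 38.9 and 42.4 in MINU2, 76.5 and 81.4 in BRM and 94.4 and 97.0 in SYD. MINU2 did not overlap with BRM or SYD at these 3 carriers, and the SYD mean was above the BRM mean at each. Outside the choice, the PIN3 region scored 5.72 with SWI3A and 20.9 with BSH, against 95.9 and 97.5 in SWI3D replicates 2 and 3.

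ARF16 had the lowest MINU2 mean of the auxin group, with 5.16 and 5.83 in MINU2, 74.6 and 79.7 in BRM and 56.1 and 71.3 in SYD. Its scores were also low in the SWI3C list (8.02) and moderate in SWI3D (35.0 to 37.4), so not every chosen region followed the pattern of the medians. IAA19 scored 22.4 and 17.9 in MINU2, 59.2 and 64.6 in BRM and 90.04 and 92.7 in SYD, with 95.3 and 93.2 in SWI3D replicates 2 and 3. GH3.3 scored 23.0 and 33.3 in MINU2, 81.2 and 78.3 in BRM and 95.3 and 93.6 in SYD, and it had no SWI3A peak. IAA18 scored 53.3 and 44.5 in MINU2, 96.8 and 96.4 in BRM and 76.2 and 77.4 in SYD, so there BRM was above SYD. The difference over the 19 regions ranged from -64.9 at ARF16 to -37.8 at IAA18.

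Genes of the clock and light list, which does not hold TIC, were nearest to 8 chosen regions (0.531%), against 0.311% of all shared regions (19 regions). They were the phytochrome-interacting factors PIF3 and PIF7, the B-box genes BBX14 and BBX15, the evening-complex gene ELF4, the blue-light receptor CRY1, and the Myb-like genes RVE1 and RVE2. PIF3 scored 36.7 and 6.46 in MINU2, 95.001 and 94.2 in BRM and 76.8 and 77.4 in SYD. PIF7 scored 36.9 and 48.0 in MINU2, 90.3 and 92.9 in BRM and 88.4 and 93.8 in SYD. CRY1 had lower BRM and SYD scores than either, with 23.0 and 31.7 in MINU2, 76.3 and 62.3 in BRM and 52.2 and 63.4 in SYD. The differences in this group ran from -64.2 at PIF3 to -31.2 at RVE2.

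Genes of the meristem and leaf patterning list were nearest to 7 chosen regions (0.465%), against 0.262% of all shared regions (16 regions). They were the TCP genes TCP4, TCP14, TCP15, TCP22 (AT1G72010) and TCP23 (AT1G35560), the organ-boundary gene CUC3 and the homeobox gene KNAT3. TCP14, a regulator of cell proliferation in leaves and internodes, scored 4.58 and 35.3 in MINU2, 88.1 and 94.1 in BRM and 94.1 and 93.4 in SYD. TCP4, which promotes the exit of leaf cells from proliferation, was led by BRM, with 10.1 and 27.1 in MINU2, 84.1 and 87.5 in BRM and 33.9 and 25.1 in SYD. MINU2 and SYD overlapped at TCP4, so there SYD scored low as well. TCP4 had no SYD peak in SYD-N-GFP syd-5 brm-1, against scores of 27.3 and 45.1 in SYD-N-GFP syd-5 replicates 1 and 2.

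Genes of the flowering and floral identity list, which holds neither CDF2 nor VEL1, were nearest to 3 chosen regions (0.199%), against 0.147% of all shared regions (9 regions). Besides SVP these were the floral meristem identity gene AP1 and AGL8 (FRUITFULL), a MADS-box gene of meristem identity and fruit development. AP1 scored 63.5 and 44.9 in MINU2, 86.5 and 83.7 in BRM and 83.9 and 84.0 in SYD. AGL8, with the summit 2306 bp from the gene, scored 16.8 and 22.6 in MINU2, 59.2 and 65.1 in BRM and 70.1 and 53.7 in SYD. AGL8 was an exception in BRM-GFP brm-1 syd-5, where it scored 15.5 and 21.7, against 59.2 and 65.1 in BRM-GFP brm-1.

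**Figure D5:**
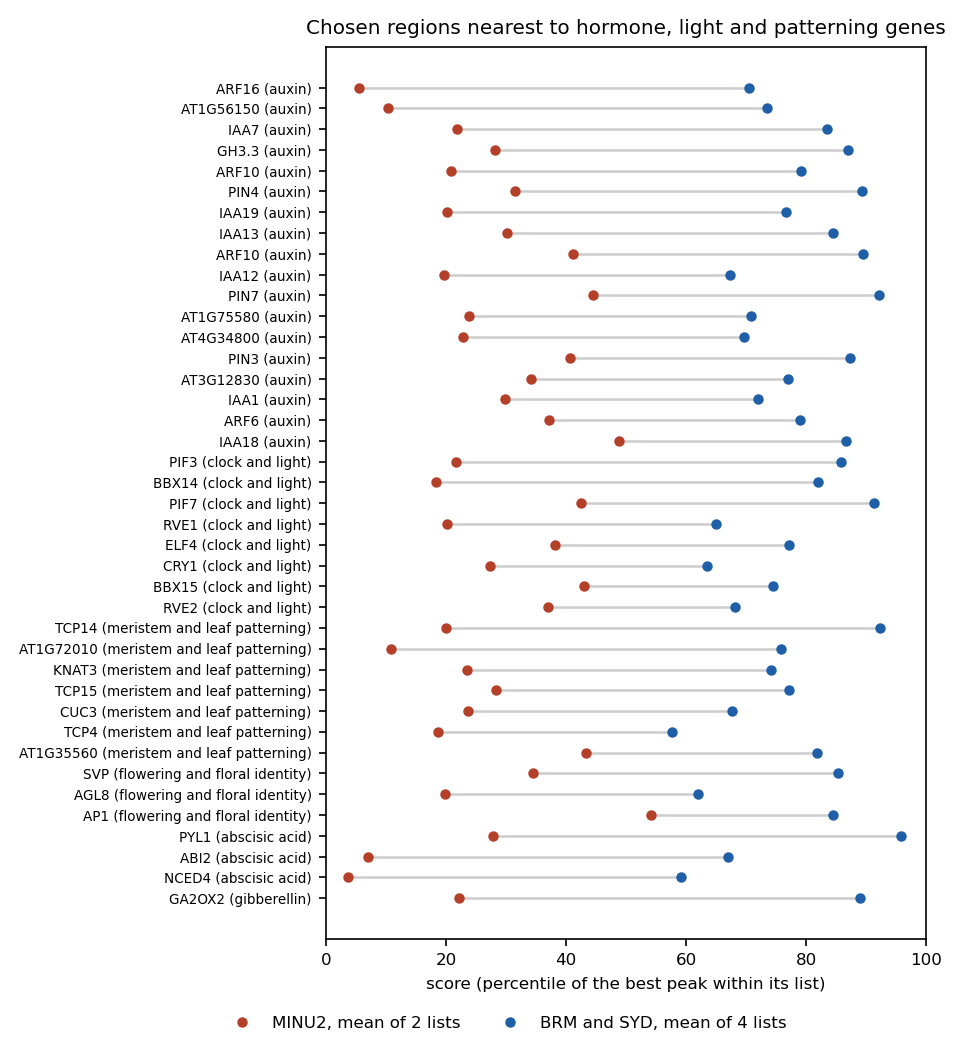
Mean score (horizontal axis) in the 2 MINU2 lists (red) and in the 4 BRM and SYD lists (blue) for chosen regions nearest to genes of the auxin, clock and light, meristem and leaf patterning, flowering, abscisic acid and gibberellin lists. Red lies left of blue throughout, as the choice requires, and the gap runs from -72.5 at TCP14 to -30.3 at AP1.

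Genes of the abscisic acid list were nearest to 3 chosen regions (0.199%), against 0.164% of all shared regions (10 regions). PYL1, a receptor of abscisic acid, scored 22.1 and 33.7 in MINU2, 98.4 and 98.3 in BRM and 93.6 and 93.2 in SYD. ABI2, a phosphatase that the receptors inhibit, scored 12.2 and 1.65 in MINU2, 72.2 and 74.6 in BRM and 50.7 and 70.3 in SYD, and had no BSH peak. NCED4, placed in the list by its symbol and known as a carotenoid cleavage dioxygenase, scored 3.74 and 3.37 in MINU2, 41.3 and 54.8 in BRM and 70.1 and 70.3 in SYD. The gibberellin list had 1 chosen region (0.0664%), against 0.0818% of all shared regions (5 regions). It lies at GA2OX2, an enzyme that inactivates gibberellins, which scored 25.6 and 18.7 in MINU2, 85.4 and 91.7 in BRM and 91.6 and 86.9 in SYD.

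Genes of a list of WRKY, MYB, NAC, bZIP and other transcription factor families were the nearest genes of 35 chosen regions, or 2.32%, against 1.19% of all shared regions (73 regions). Genes of the jasmonate and ethylene list were nearest to 7 chosen regions (0.465%), against 0.327% of all shared regions (20 regions). Those of the cytokinin list, which does not hold CRF10, were nearest to 2 (0.133%), against 0.0981% (6 regions). Genes of the ribosomal protein list were nearest to 2 chosen regions (0.133%), against 0.213% of all shared regions (13 regions). Those of the photosynthesis list were nearest to 1 (0.0664%), against 0.0818% (5 regions). Genes of the heat shock list were nearest to 0 chosen regions, against 0.0327% of all shared regions (2 regions). A list with few regions cannot separate its share from that of all shared regions, of which 24.6% were chosen.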

How the data were processed

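Peak lists of 26 ChIP-seq libraries were analysed, 1 per library, read by the names of the deposited lists. Per the submitters' processing notes fastp, Bowtie2, MACS2 2.0, deepTools, ChIPseeker and the TAIR10 build were used, with no role or order given. Peak names hold the text RmDup. Each deposited list gives a fold enrichment per peak, a ratio to a background that the sources used here do not describe. It also gives a −log10 p-value and a −log10 q-value per peak, as the authors deposited them. A deposited score column equals 10 times the −log10 q without its decimals and was not used further. The lowest −log10 q per list was 1.303 to 1.521, so an absent peak was not called, not shown to be unbound.

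Percentile scores were computed within each list (0 where no peak was called). The members and gene lists were chosen with earlier results of these data known. Named regions are the 12 lowest differences, the 12 highest BRM and SYD scores, 3 on either side of the threshold and those nearest to listed flowering, light, auxin, gibberellin, abscisic acid or meristem genes. Lists, not regions, were the units of exact two-sided permutation tests, in which p is the share of splits with an absolute difference at least as large, with Benjamini-Hochberg adjustment over 4 tests. p-values measure the spread between lists. Positions relative to genes use the TAIR10.1 RefSeq gene table, for which no coordinates are printed. Its build name differs from that of the lists. As a check, 55.0% of SYD-N-GFP syd-5 replicate 3 summits lay outside gene spans, against 37.1%, 32.6% and 32.8% with the table moved by 1000, 5000 and 20000 bp. It gave a symbol for the nearest gene of 705 chosen regions. It holds no strand, so the planned promoter share was replaced by the share outside gene spans, and sequences and motifs were not analysed here. Some named regions are not reported here. The methods were tested on simulated data. There were 0 unmapped columns. Python 3.11.15, numpy 2.4.6, pandas 2.3.3, scipy 1.17.1 and matplotlib 3.10.9 were used.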

Additional observations from a re-analysis of the deposited data

Results flagged for a closer look

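The lists of 4 further subunits entered no comparison, and their excess is given as a value from 1 library each. The SWP73A-GFP swp73a-2 list had an excess (chosen minus other shared regions, in percentile points) of 37.9, in a short list of 8960 peaks. The SWP73B-GFP swp73b-1 list, of its paralogue, had an excess of -14.2, in the longest list of 21329 peaks. Both lists have organelle peaks. The BCL7A-GFP bcl7a list had an excess of -0.334 and the BCL7B-GFP bcl7b list one of 8.92, and neither has organelle peaks. The differences between paralogues were not tested.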

How the results depend on the processing

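Read depth is unknown, so no limit from counts can be given for an absent peak. The number of chosen regions was 863 with a −log10 q of at least 10, 410 when peaks had to cover at least 0.5 of the region and 2380 with regions of all 26 lists kept, and 1513 to 1850 with 1 list left out. The share outside genes was 39.6% with a −log10 q of at least 10 and 48.9% with protein-coding genes only (chosen after seeing the data), and 37.8% to 52.2% with 1 list left out. The share with a peak in both further SYD lists was 100% at a threshold of -35 and 98.3% when peaks had to cover at least 0.5 of the region, and 99.2% to 100% with 1 list left out.

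The excess of BRM, SYD, SWI3C and SWI3D lists over BSH and SWI3A was 55.9 to 63.8 with 1 list left out. As labelled (here and below with the regions still chosen by list name) it was -12.0 (exact permutation p = 0.462). It was 55.4 with ATPase lists only (exact permutation p = 0.0222) and 63.5 without both SYD-N-GFP syd-5 swi3d-1 lists (p = 0.011, exact permutation, chosen after seeing the data). With the p counted as 2 times the smaller tail, chosen after seeing the data, the difference of 59.8 had an adjusted exact permutation p of 0.0667. The difference for SYD without BRM was -0.39 with absent regions left out and -1.15 with means in place of medians, and 1.68 to 6.79 with 1 list left out. For SYD without SWI3D it was -25.7 to -21.9 with 1 list left out. For SWI3D without SYD it was -0.0856 at a threshold of -25, -20.02 when peaks had to cover at least 0.5 of the region, -7.18 with absent regions left out, -5.83 with means, -1.97 as labelled and -4.82 to 10.8 with 1 list left out. The causes of these changes were not tested. No other setting changed a direction or a call.

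Replicate numbers of the list names did not pair the lists (deviation correlations of -0.015, 0.032 and -0.074 over 1506 regions). With the replicate number as a block the differences were 4.23 for SYD without BRM (exact permutation p = 0.5), -23.4 for SYD without SWI3D (exact permutation p = 0.5) and 1.32 for SWI3D without SYD (exact permutation p = 1). The promoter share and its alternatives were not run. SYD without BRM or SWI3D gave no value as labelled, because all lists labelled SYD-GFP syd-5 took part in the choice.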

Other observations

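AT5G39890 (PCO2), one of the regions highest for BRM and SYD, had no peak in SWI3D-GFP swi3d-1 syd-5 replicates 1 and 2 or in SWI3D-GFP swi3d-1 replicates 2 and 3, and scored 93.6 in SWI3D-GFP swi3d-1 replicate 1. It also scored 93.2 with SWI3A and 67.8 with BSH, and 88.9 in SYD-N-GFP syd-5 swi3d-1 replicate 2, where most chosen regions had no peak. KNAT3 scored 1.38 with BSH and 13.1 with SWI3C, and had no peak in SWI3D-GFP swi3d-1 replicate 1.

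Among jasmonate, ethylene and cytokinin genes, named here after their values were seen, the chosen regions included ACS6 of ethylene synthesis, MYC3 of jasmonate signalling, and CKX5, which degrades cytokinins. CKX5 had a mean score of 9.47 in MINU2 and a difference of -72.0. MYC3 had 39.5 and a difference of -50.3. WRKY33 and WRKY40, regulators of defence, had differences of -66.4 and -72.3.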
